A study of Mus musculus with 15 samples.

Results

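The insulin-like growth factor (IGF) system was described at the RNA level in 3T3-L1 cells, a mouse preadipocyte line, as the 10 genes Igf1, Igf2, Igf1r, Igf2r, Igfbp2, Igfbp3, Igfbp4, Igfbp5, Igfbp6 and Igfbp7, which were chosen by gene symbol from the 26301 gene numbers counted in every library, with earlier results of these libraries known. All 15 poly(A) RNA-seq libraries were taken on day 2 after induction with 1.67 µM insulin, 1 µM dexamethasone and 115 µg/mL IBMX, with 3 replicates in each of 5 groups. The control cells carried the control retrovirus (shEmpty, here sh-Empty), which the study describes both as a control hairpin and as a virus without a hairpin, and the knockdown cells a hairpin against Jmjd1a (shJmjd1a, here sh-Jmjd1a), the gene Kdm3a that encodes the iron-dependent H3K9 demethylase JMJD1A. The other 3 groups were sh-Jmjd1a cells that also expressed LacZ, hairpin-resistant wild-type JMJD1A (WT, here JMJD1A(WT)) or JMJD1A with a substitution in its iron-binding site (Mut, here JMJD1A(H1122A)). All lines were stably infected with retrovirus and selected with antibiotics, and nothing in the sources says whether replicates were separate infections or cultures, so p-values measure the spread between these libraries, which may be technical.

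IGF1 and IGF2 are secreted peptides that signal through the receptor tyrosine kinase encoded by Igf1r, which acts on the same IRS, PI3K and AKT proteins as the insulin receptor. IGF2R, the cation-independent mannose 6-phosphate receptor, takes IGF2 up for lysosomal breakdown and sorts lysosomal enzymes. The IGF binding proteins (IGFBPs) hold the ligands in the medium or at the matrix, and proteases such as PAPP-A release the ligands by cutting them. IGF and insulin signals drive the growth and adipose conversion of preadipocytes, and the medium used here contained insulin.

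Library totals ranged from 11437058 to 25523148 counts (median 12916162), with the highest in JMJD1A(WT) replicate 3. Kdm3a was at 174 ± 7.21 CPM (counts scaled to library size; SD, n = 3) in sh-Empty, 130 ± 4.46 in sh-Jmjd1a and 120 ± 2.66 in LacZ, against 1698 ± 70.8 with JMJD1A(WT) and 2209 ± 88.7 with JMJD1A(H1122A), so the hairpin lowered the RNA by 0.42 on the log2 scale (adjusted p = 2.91e-08) and both constructs were detected. The 8 adipocyte markers summed to 4988–5081 CPM in sh-Empty, 2565–2743 in sh-Jmjd1a, 3328–3414 in LacZ, 3757–4109 with JMJD1A(WT) and 2575–2678 with JMJD1A(H1122A), whereas the 8 preadipocyte and fibroblast markers summed to 12494–12683 CPM in sh-Empty and 20545–26930 in the other groups. On knockdown 6 of the 8 preadipocyte and fibroblast markers were higher and 1 lower at an adjusted p of 0.05, beside 46.2% of all genes in either direction. For JMJD1A(H1122A) against JMJD1A(WT) 4 were higher and 2 lower, beside 23.8% of all genes, with Dlk1 among the latter (-0.96 on the log2 scale). In sh-Jmjd1a the collagen genes Col3a1 and Col1a2, at 8608 and 6001 CPM on average, made up most of the sum. Both marker sums move with several genes below, and their part in those differences was not tested. All 8 preadipocyte markers were at 1 CPM or more in every group, whereas the 5 macrophage markers summed to at most 3.998 CPM, the 4 endothelial markers to at most 0.858 CPM and the 4 epithelial markers to at most 0.786 CPM in any library.

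At the level of the transcripts, Igf2r was abundant, Igfbp4 and Igfbp7 made up nearly all binding-protein RNA, and both ligands were scarce. Per kilobase of annotated exon, a scale that depends on the annotated gene model, sh-Empty cells held 141 ± 4.70 CPM per kb of Igf2r and 21.3 ± 1.48 of Igf1r (SD, n = 3), but 0.50 ± 0.12 of Igf1 and 0.33 ± 0.13 of Igf2. On the same scale, Igfbp4 was at 394 ± 5.04 and Igfbp7 at 235 ± 2.40, Igfbp6 at 22.3 ± 1.67 and Igfbp5 at 1.29 ± 0.039. Of the 10 genes, 8 passed the filter on low counts in each fit. Igfbp2 and Igfbp3 did not: Igfbp2 had 11 counts and Igfbp3 20 counts over all 15 libraries, with no library above 7. In bulk RNA, fewer expressing cells and less RNA per cell cannot be told apart.

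**Figure D1:**
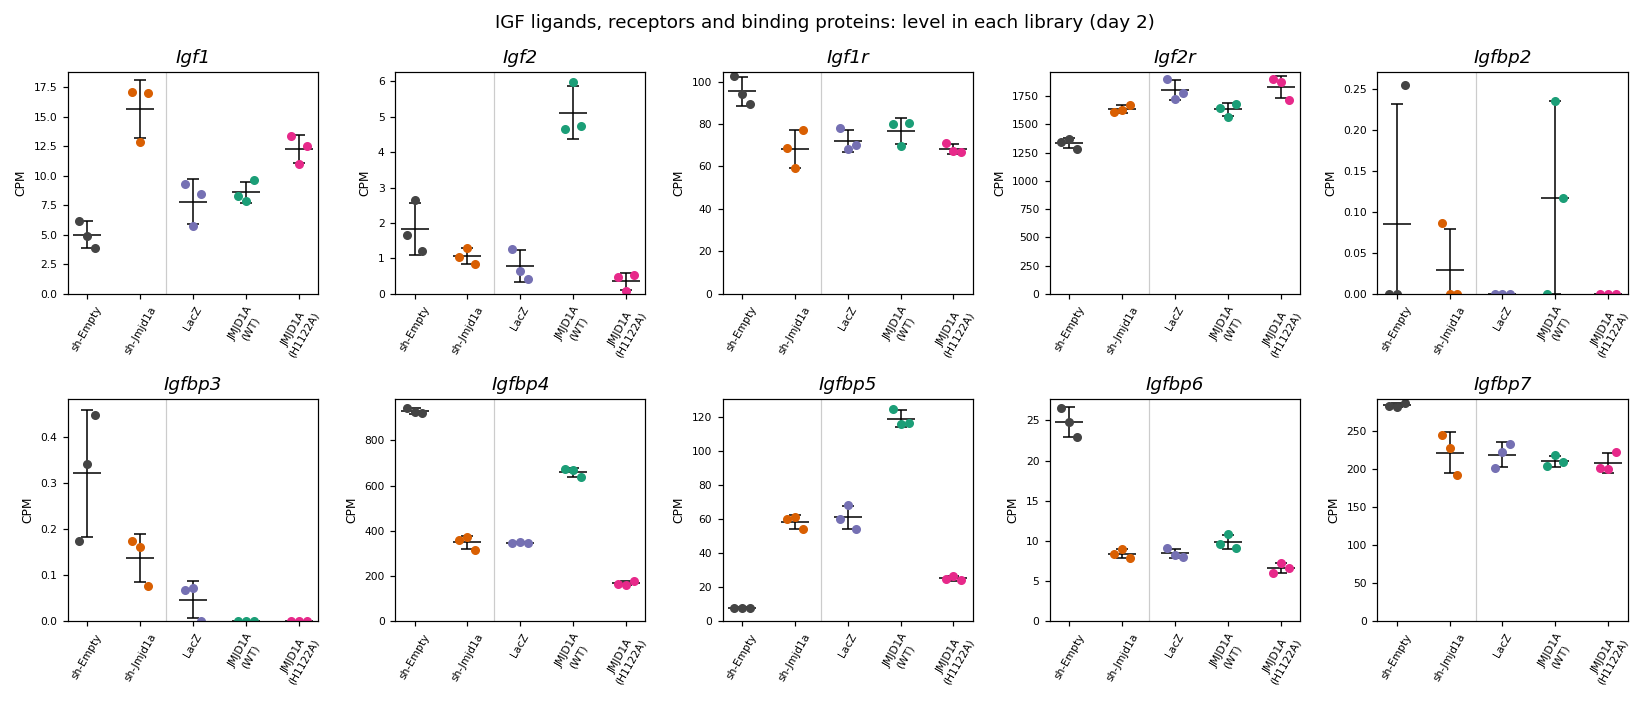
Level of each of the 10 genes in CPM (linear axes from 0), with 1 point per library, a horizontal bar at the mean and whiskers of 1 SD (n = 3); the vertical line divides the knockdown pair from the 3 rescue groups. Igfbp4 was highest in sh-Empty (929.8 CPM on average) and lowest with JMJD1A(H1122A) (166 CPM), while Igfbp5 was lowest in sh-Empty (7.74 CPM) and highest with JMJD1A(WT) (119 CPM).

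Igfbp4 RNA fell on knockdown, rose when wild-type JMJD1A was put back and fell below the LacZ level with the iron-site substitution. IGFBP-4 binds both IGFs and, when intact, keeps IGF1 from its receptor. The gene lies at chr11:98902558-98913969 on the plus strand of mm9. In sh-Empty replicates 1 to 3 Igfbp4 was at 943, 926 and 921 CPM, against 357, 371 and 316 CPM in sh-Jmjd1a. The LacZ libraries held 343, 350 and 347 CPM, those with JMJD1A(WT) 673, 669 and 637 CPM, and those with JMJD1A(H1122A) 162, 161 and 176 CPM. The libraries of sh-Jmjd1a and LacZ overlapped, and every other pair of groups was separate, so the groups ran from sh-Empty down through JMJD1A(WT) and the 2 knockdown controls to JMJD1A(H1122A). The log2 fold change (log2FC) was -1.42 (SE 0.044, adjusted p = 3.15e-20) for sh-Jmjd1a against sh-Empty and 0.93 (SE 0.038, adjusted p = 2.34e-23) for JMJD1A(WT) against LacZ. For JMJD1A(H1122A) it was -1.99 (SE 0.041, adjusted p = 2.29e-35) against JMJD1A(WT) and -1.06 (SE 0.041, adjusted p = 1.06e-23) against LacZ.

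Igfbp5 RNA was higher after knockdown, higher again with wild-type JMJD1A, and lower than LacZ with JMJD1A(H1122A). IGFBP-5 binds IGFs and attaches to the extracellular matrix. The gene lies at chr1:72904506-72921458 on the minus strand of mm9. Its level was 7.91, 7.84 and 7.48 CPM in sh-Empty, 59.7, 61.0 and 53.8 CPM in sh-Jmjd1a, and 60.1, 68.1 and 54.1 CPM in LacZ. It reached 124, 116 and 116 CPM with JMJD1A(WT) and 24.46, 26.67 and 24.04 CPM with JMJD1A(H1122A). Again only sh-Jmjd1a and LacZ overlapped, but sh-Empty, which was the highest group for Igfbp4, was the lowest for Igfbp5. This gene had been singled out in earlier results for its differences, so its log2FC of 2.91 (SE 0.096) on knockdown, 0.97 (SE 0.061) for JMJD1A(WT) against LacZ, -2.24 (SE 0.072) for JMJD1A(H1122A) against JMJD1A(WT) and -1.27 (SE 0.080) against LacZ are given as a description. With JMJD1A(WT), Igfbp5 was therefore farther from sh-Empty (log2FC 3.94, SE 0.090) than on knockdown alone. The JMJD1A(WT) cells had been infected with a second virus, and they held 1698 CPM of Kdm3a RNA against 174 in sh-Empty. The part of either in this difference was not tested.

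Because Igfbp4 and Igfbp5 moved the same way among the rescue groups and opposite ways on knockdown, the 300 bases around their RefSeq start sites (250 before and 50 after, written 5′ to 3′ on the gene's strand) are shown here. They come from RefSeq on GRCm38.p6 and were located in mm9 by a single exact match, Igfbp4 at chr11:98902308-98902607 (plus strand) and Igfbp5 at chr1:72921390-72921689 (minus strand). Capitals mark any match on either strand to 4 words: the TATA-box word TATAAA, which occurs in 13.6% of the 32851 promoters in that table, the nuclear receptor core AGGTCA (16.3%), the E-box CACGTG (7.15%) and the C/EBP-type word TTGCNNAA (10.8%).
Igfbp4: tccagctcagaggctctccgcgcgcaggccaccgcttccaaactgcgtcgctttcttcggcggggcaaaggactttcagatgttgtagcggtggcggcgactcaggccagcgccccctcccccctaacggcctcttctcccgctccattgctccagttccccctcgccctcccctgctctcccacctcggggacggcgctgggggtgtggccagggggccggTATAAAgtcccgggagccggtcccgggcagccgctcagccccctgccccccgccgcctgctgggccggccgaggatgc
Igfbp5: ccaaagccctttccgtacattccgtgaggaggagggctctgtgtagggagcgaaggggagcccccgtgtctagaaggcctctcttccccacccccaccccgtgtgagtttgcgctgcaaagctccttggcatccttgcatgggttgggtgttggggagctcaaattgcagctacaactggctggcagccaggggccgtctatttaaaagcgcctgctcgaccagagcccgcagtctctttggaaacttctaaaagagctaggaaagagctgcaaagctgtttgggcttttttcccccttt
The Igfbp4 window held TATAAA on its own strand from base -28, and no other of these words. The Igfbp5 window held none of the 4 words, which says only that these letters were not in this window. GC content was 71.3% in the Igfbp4 window and 56.3% in that of Igfbp5.

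Igfbp6 and Igfbp7 fell on knockdown, and neither passed the test for JMJD1A(WT) against LacZ. IGFBP-6 binds IGF2 in preference to IGF1. Igfbp6 was at 26.6, 24.8 and 22.9 CPM in sh-Empty, 8.399, 8.995 and 7.83 CPM in sh-Jmjd1a, and 9.08, 8.28 and 7.93 CPM in LacZ. It was at 9.61, 10.8 and 9.13 CPM with JMJD1A(WT) and at 5.96, 7.22 and 6.55 CPM with JMJD1A(H1122A), so all 12 libraries with the Jmjd1a hairpin were below all 3 of sh-Empty. The log2FC was -1.55 (SE 0.116, adjusted p = 6.25e-12) on knockdown, and 0.21 (approximate 95% interval -0.06 to 0.48, adjusted p = 0.442) for JMJD1A(WT) against LacZ, whose libraries were just separate. With JMJD1A(H1122A) Igfbp6 was lower than under JMJD1A(WT) (log2FC -0.56, SE 0.152, adjusted p = 0.00473), whereas the difference from LacZ, -0.35, did not pass (adjusted p = 0.19).

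Igfbp7 encodes a secreted protein that binds IGFs only weakly. It was at 283, 283 and 288 CPM in sh-Empty and at 245, 228 and 193 CPM in sh-Jmjd1a, which is separate from sh-Empty, with a log2FC of -0.36 (SE 0.060, adjusted p = 7.51e-05). Levels in the rescue groups averaged 220 ± 15.97 CPM in LacZ, 211 ± 7.22 with JMJD1A(WT) and 208 ± 12.9 with JMJD1A(H1122A) (SD, n = 3), and these overlapped. JMJD1A(WT) against LacZ gave -0.05 (interval -0.14 to 0.04, adjusted p = 0.609). Igfbp7 shares 85 exonic bases with Polr2b on the opposite strand, the labels name a library kit that keeps no strand while the study's methods name a directional kit, and no source states whether counting used strand, so reads from that stretch cannot be assigned with certainty.

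Summed per kilobase of exon, the 6 binding-protein transcripts amounted to 652 ± 5.25 CPM per kb in sh-Empty, 348 ± 33.7 in sh-Jmjd1a, 346 ± 13.5 in LacZ, 482 ± 11.5 with JMJD1A(WT) and 252 ± 14.1 with JMJD1A(H1122A) (SD, n = 3). Igfbp4 accounted for 60.4% ± 0.33 of that sum in sh-Empty, 42.4% ± 1.44 in sh-Jmjd1a, 42.5% ± 1.39 in LacZ, 57.9% ± 0.90 with JMJD1A(WT) and 28.0% ± 0.12 with JMJD1A(H1122A). Igfbp7 made up 36.0% ± 0.55 in sh-Empty and 68.0% ± 0.47 with JMJD1A(H1122A), so the leading transcript differed between these groups. The share of Igfbp5 never exceeded a few percent, from 0.20% ± 0.0052 in sh-Empty to 4.11% ± 0.19 with JMJD1A(WT), despite its large fold changes.

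**Figure D2:**
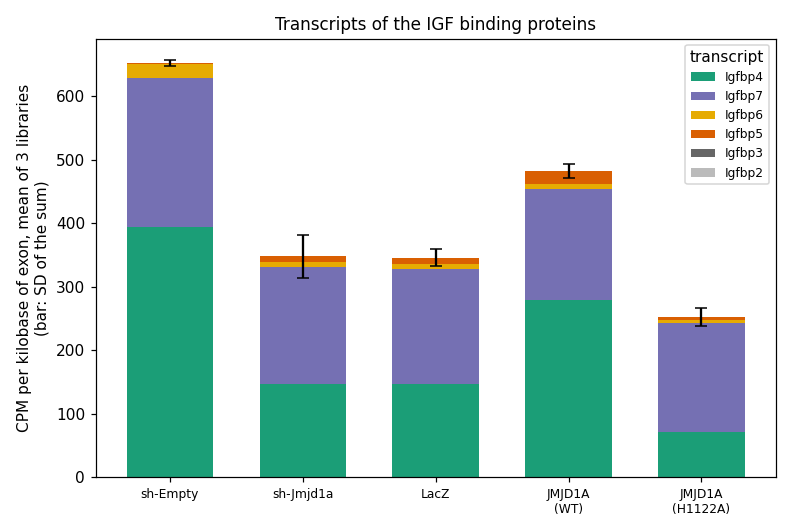
Stacked bars of mean CPM per kilobase of exon for the binding-protein transcripts in each group (n = 3; whiskers are 1 SD of the sum). The Igfbp4 segment is 394 in sh-Empty, 279 with JMJD1A(WT) and 70.5 with JMJD1A(H1122A), whereas the Igfbp7 segment lies between 172 and 235 in all 5 groups.

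Igfbp2 and Igfbp3 were at or near 0. IGFBP-3 is the main carrier of IGFs in blood, and IGFBP-2 is made by many fetal and adult tissues. Igfbp3 had 2, 4 and 7 counts in the sh-Empty libraries, 2, 2 and 1 in sh-Jmjd1a, 1, 1 and 0 in LacZ and none in the 6 libraries with JMJD1A(WT) or JMJD1A(H1122A). A count of 0 allows up to 3 counts, or 0.118 to 0.256 CPM in those 6 libraries, and intervals of this kind cover counting error only. Igfbp2 had 4 counts in sh-Empty replicate 3, 1 in sh-Jmjd1a replicate 1 and 3 in each of JMJD1A(WT) replicates 2 and 3, and 0 in the other 11 libraries. Igfbp2 is the neighbour of Igfbp5 on mm9 chromosome 1, its end 5457 bases from that of Igfbp5 on the facing strand, and it stayed at these counts in the groups where Igfbp5 was high.

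Igf1 RNA rose on knockdown, and was not shown to differ between JMJD1A(WT) and LacZ cells. Igf1 spans chr10:87321010-87399792 on the plus strand of mm9. The sh-Empty libraries held 6.172, 4.856 and 3.898 CPM and the sh-Jmjd1a libraries 17.06, 12.85 and 17.03 CPM, which gives a log2FC of 1.68 (SE 0.167, adjusted p = 2.13e-09). LacZ libraries were at 9.28, 5.71 and 8.43 CPM, lower than in plain sh-Jmjd1a (log2FC -1.01, SE 0.151, adjusted p = 4.25e-06), although both carried the hairpin. The LacZ cells were sh-Jmjd1a cells infected with a second virus, which cannot be told apart from any other difference between these lines. With JMJD1A(WT) the level was 8.28, 7.86 and 9.60 CPM, overlapping LacZ (log2FC 0.17, interval -0.13 to 0.48, adjusted p = 0.601). With JMJD1A(H1122A) it was 13.33, 10.98 and 12.49 CPM, above every LacZ and JMJD1A(WT) library. That difference was 0.65 (SE 0.154, adjusted p = 0.0038) against LacZ and 0.47 (SE 0.145, adjusted p = 0.0125) against JMJD1A(WT). Without LacZ replicate 2 the first became 0.0574, and without JMJD1A(H1122A) replicate 1 the second became 0.0875, as adjusted p of the same edgeR test.

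Igf2 RNA was highest with JMJD1A(WT). Igf2, an imprinted gene, lies at chr7:149836673-149852721 on the minus strand of mm9. It had 19, 31 and 19 counts in sh-Empty, 12, 16 and 11 in sh-Jmjd1a, 19, 9 and 6 in LacZ, 63, 76 and 121 with JMJD1A(WT) and 6, 1 and 6 with JMJD1A(H1122A). On the CPM scale the JMJD1A(WT) libraries, at 4.66, 5.97 and 4.72, were above all others, and the highest of those was sh-Empty replicate 2 at 2.64. The log2FC was 2.66 (SE 0.305) for JMJD1A(WT) against LacZ and -3.84 (SE 0.388) for JMJD1A(H1122A) against JMJD1A(WT). In the rescue set JMJD1A(WT) was the only group with every library above the filter, so a gene that passed this way had to differ there. Both log2FC values are therefore given as a description. The 4 muscle markers also summed highest with JMJD1A(WT), at 14.4–16.6 CPM against 2.195–5.139 CPM elsewhere. Nearly all of this sum was Des, at 15.52 CPM on average with JMJD1A(WT). Acta1 averaged at most 0.08831 CPM in any group, and the defining genes Myod1 and Myog were at 0 in every group. Des was called (log2FC -2.42, adjusted p = 2.7e-15, JMJD1A(H1122A) against JMJD1A(WT)). Outside JMJD1A(WT), mean Des was highest in LacZ (4.257 CPM), whereas mean Igf2 was highest in sh-Empty (1.836 CPM). The decrease of Igf2 on knockdown, -0.76 (SE 0.384), did not pass (adjusted p = 0.111), but without sh-Empty replicate 3 it did (adjusted p = 0.0482).

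H19, an imprinted noncoding RNA gene on the same strand 72.6 kb from Igf2, which belonged to the list of IGF-related imprinted genes, was at 26.2 ± 1.45 CPM in sh-Empty, 10.2 ± 1.56 in sh-Jmjd1a, 8.43 ± 0.37 in LacZ, 20.8 ± 1.20 with JMJD1A(WT) and 5.72 ± 0.15 with JMJD1A(H1122A) (SD, n = 3). Its log2FC was -1.36 (SE 0.114, adjusted p = 6.45e-11) on knockdown, 1.31 (SE 0.115, adjusted p = 3.93e-12) for JMJD1A(WT) against LacZ and -1.86 (SE 0.130, adjusted p = 1.04e-15) for JMJD1A(H1122A) against JMJD1A(WT). Unlike Igf2, H19 was no higher with JMJD1A(WT) than in sh-Empty, whose 3 libraries were all above those with JMJD1A(WT). The antisense gene Igf2os had 3 counts over all libraries. Igf2 shares 98 exonic bases with the noncoding RNA gene annotated as Igf2as on the opposite strand. As for Igfbp7, reads from that stretch cannot be assigned with certainty.

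Both receptor genes moved by small amounts. Igf1r, at chr7:75097713-75371484 on the plus strand of mm9, was at 102, 94.3 and 89.3 CPM in sh-Empty and at 68.6, 59.2 and 77.2 CPM in sh-Jmjd1a, a log2FC of -0.48 (SE 0.083, adjusted p = 0.000176). The rescue groups averaged 72.1 ± 5.15 CPM in LacZ, 76.7 ± 5.97 with JMJD1A(WT) and 68.4 ± 2.32 with JMJD1A(H1122A) (SD, n = 3), all below sh-Empty. JMJD1A(WT) did not differ detectably from LacZ (0.10, interval -0.02 to 0.22, adjusted p = 0.365). The difference between JMJD1A(H1122A) and JMJD1A(WT), -0.18, passed narrowly (adjusted p = 0.0335), the libraries overlapped, and the largest adjusted p on leaving out single libraries was 0.21: the call was lost without JMJD1A(H1122A) replicate 2 or 3 or JMJD1A(WT) replicate 1 or 3.

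Igf2r, at chr17:12875272-12962530 on the minus strand of mm9, was at 1344, 1369 and 1283 CPM in sh-Empty and at 1609, 1625 and 1674 CPM in sh-Jmjd1a (log2FC 0.295, SE 0.036, adjusted p = 1.02e-07). It was at 1805 ± 90.5 CPM in LacZ, 1634 ± 58.2 with JMJD1A(WT) and 1833 ± 100.3 with JMJD1A(H1122A) (SD, n = 3), so JMJD1A(WT) was the lowest of the rescue groups but above all sh-Empty libraries. JMJD1A(WT) was lower than LacZ (log2FC -0.14, SE 0.038, adjusted p = 0.0148), a call lost without LacZ replicate 1 or JMJD1A(WT) replicate 2 (adjusted p up to 0.0975), and JMJD1A(H1122A) was higher than JMJD1A(WT) by 0.165 (SE 0.038, adjusted p = 0.00117). The noncoding RNA gene Airn lies within Igf2r on the opposite strand but shares no exonic base with it.

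**Figure D3:**
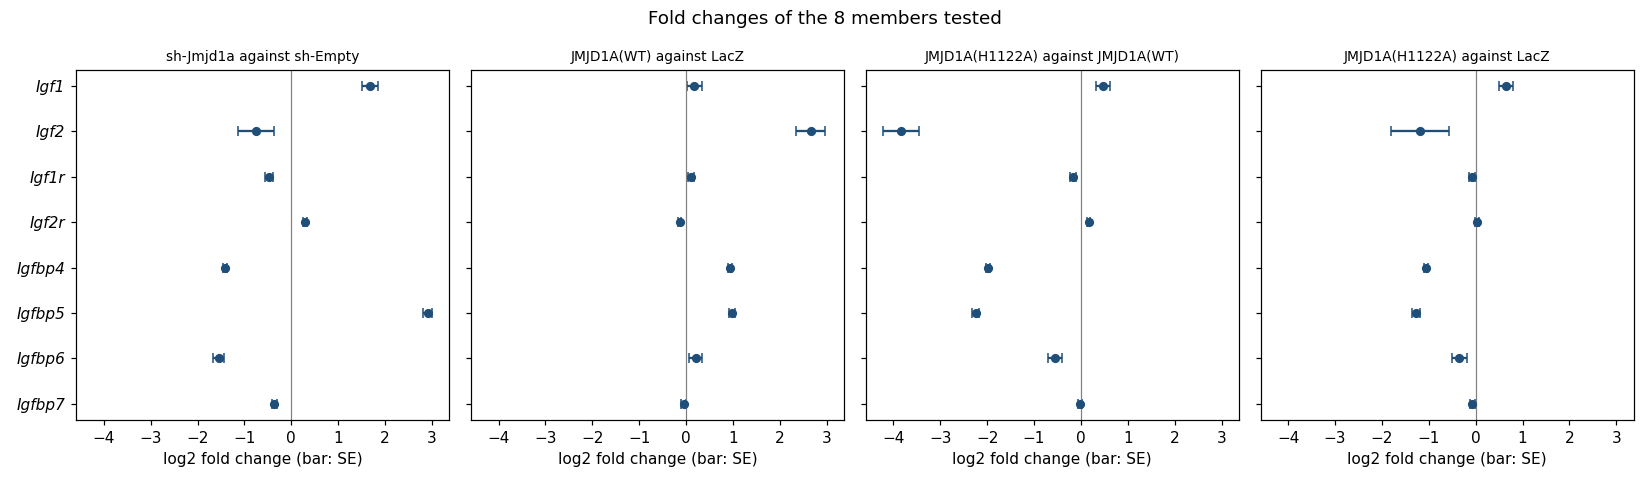
Log2 fold changes of the 8 genes tested in 4 comparisons (points), with whiskers of 1 SE, on a common axis; the vertical line marks 0. Knockdown gave 1.68 for Igf1 and -1.42 for Igfbp4, and Igf2 runs from 2.66 for JMJD1A(WT) against LacZ to -3.84 for JMJD1A(H1122A) against JMJD1A(WT).

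Counting these calls beside the whole transcriptome, 7 of the 8 genes tested passed an adjusted p of 0.05 on knockdown, 4 lower and 3 higher, where 46.2% of all 12272 genes did (23.9% lower and 22.3% higher). For JMJD1A(WT) against LacZ 4 of 8 passed beside 9.50% of all 12557 genes, for JMJD1A(H1122A) against JMJD1A(WT) 7 of 8 (5 lower, 2 higher) beside 23.8% (11.7% lower and 12.1% higher), and for JMJD1A(H1122A) against LacZ 3 of 8 beside 9.24%. For LacZ against sh-Jmjd1a 2 of 8 passed, Igf1 and Igf2r, beside 6.98%, and the Igf2r call (log2FC 0.13, adjusted p = 0.0331) was lost without LacZ replicate 1 or 3 or sh-Jmjd1a replicate 1 or 2 (adjusted p up to 0.241). The median log2FC of the 8 genes was -0.42 on knockdown, 0.19 for JMJD1A(WT) against LacZ and -0.37 for JMJD1A(H1122A) against JMJD1A(WT), against medians near 0 over all genes (-0.003, 0 and -0.001). Igf2 had to differ in the rescue set, as above, and Igfbp5 was singled out for its differences; without both, 6 of 6 genes passed on knockdown, 2 of 6 for JMJD1A(WT) against LacZ, 5 of 6 for JMJD1A(H1122A) against JMJD1A(WT) and 2 of 6 for JMJD1A(H1122A) against LacZ, with medians of -0.42, 0.14, -0.10 and -0.07. All of these genes were chosen with results known, so their shares and medians are a description. JMJD1A(H1122A) libraries also held more Kdm3a RNA than JMJD1A(WT) libraries (log2FC 0.38, adjusted p = 3.94e-12), and its part in these differences was not tested.

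To ask how far wild-type JMJD1A brought each gene back, the change on knockdown was added to the change for JMJD1A(WT) against LacZ, a sum that is 0 where they are equal and opposite and that uses no library in both differences. Leaving out Igfbp5, singled out for its differences, and Igf2, which had to differ between JMJD1A(WT) and LacZ, the sum differed from 0 for 6 of 6 genes, beside 32.7% of all 12758 genes in that fit, although for Igf2r (0.17, adjusted p = 0.0126) the call was lost without LacZ replicate 2, JMJD1A(WT) replicate 3 or sh-Empty replicate 3. Igfbp4 came nearest to reversal among the large changes, with a sum of -0.48 (SE 0.057, adjusted p = 3.07e-09). The sums for Igfbp6 (-1.33, adjusted p = 6.72e-08) and Igf1 (1.86, adjusted p = 1.36e-08) kept the sign and about the size of the knockdown change. The Igf1 sum joins differences with unlike baselines, as Igf1 averaged 7.81 CPM in LacZ and 15.65 CPM in sh-Jmjd1a. For Igf2 the sum was 1.91 (SE 0.551), as its rise with JMJD1A(WT) was larger than its uncalled decrease on knockdown. For Igfbp5 the sum was 3.89 (SE 0.119), as both changes had the same sign. The sums for Igf2 and Igfbp5 are a description. Compared directly, the same 6 genes all differed between JMJD1A(WT) and sh-Empty, beside 45.6% of all genes. Their log2FC ran from -1.34 for Igfbp6 to 0.85 for Igf1. The JMJD1A(WT) cells carried the Jmjd1a hairpin and a second virus, which sh-Empty cells did not, and these cannot be told apart from the added JMJD1A. Kdm3a RNA was also higher with JMJD1A(WT) than in sh-Empty (log2FC 3.28, SE 0.042), and its part in these sums and differences was not tested.

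**Figure D4:**
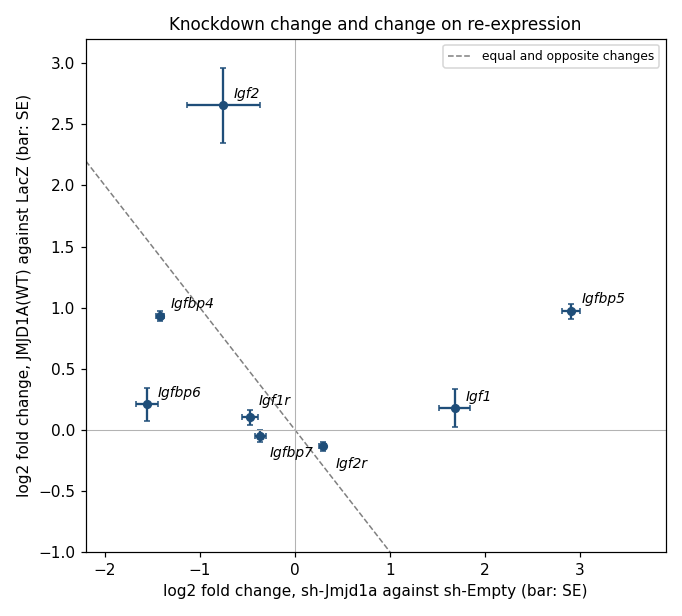
Log2 fold change for JMJD1A(WT) against LacZ (vertical axis) plotted against that for sh-Jmjd1a against sh-Empty (horizontal axis) for the 8 genes tested, with whiskers of 1 SE; the dashed line marks equal and opposite changes. Igfbp4 (-1.42, 0.93) lies below the line, with a sum of -0.48, whereas Igfbp5 (2.91, 0.97) lies where both changes are increases.

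Among 9 genes for IGFBP proteases and their inhibitors, 6 were tested on knockdown, of which 2 fell and 3 rose (median log2FC 0.72), beside 46.2% of all genes called. Adam12, a metalloprotease that cuts IGFBP-3 and IGFBP-5, fell from 343 ± 8.93 to 79.4 ± 1.58 CPM (log2FC -2.11, adjusted p = 8.12e-24). Pappa, which encodes the protease that cuts IGFBP-4, rose from 42.5 ± 2.91 to 118 ± 8.77 CPM (log2FC 1.47, adjusted p = 1.1e-16), in the cells in which Igfbp4 fell. Pappa2, whose product cuts IGFBP-3 and IGFBP-5, rose from 2.83 ± 0.81 to 7.64 ± 1.27 CPM (log2FC 1.47, adjusted p = 2.51e-06), as did the PAPP-A inhibitor gene Stc1 (1.35, adjusted p = 0.000139), while Ctsd, for cathepsin D, fell by 0.18 on the log2 scale. For JMJD1A(H1122A) against JMJD1A(WT) 7 were tested and 2 fell, a share near the 23.8% of all genes called. They were Pappa2 (-1.61, adjusted p = 3.83e-09) and Adam12 (-0.98, adjusted p = 4.34e-18), whereas Pappa gave 0.004 (adjusted p = 0.966). Against LacZ, Pappa was lower with JMJD1A(WT) (-0.205, adjusted p = 0.00645) and with JMJD1A(H1122A) (-0.20, adjusted p = 0.0124). Pappa2 was higher than LacZ with JMJD1A(WT) (0.51, adjusted p = 0.0214) and lower with JMJD1A(H1122A) (-1.09, adjusted p = 0.000292).

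Of 21 genes that act just below the IGF1 receptor, 19 were tested; 8 fell and 7 rose on knockdown (median -0.08), beside 23.9% lower and 22.3% higher over all genes. Irs1, for an adaptor of the insulin and IGF1 receptors, rose by 0.62 (adjusted p = 4.45e-10), whereas Akt2, for a kinase activated through PI3K, fell by 0.53 on the log2 scale (adjusted p = 4.14e-10). JMJD1A(WT) against LacZ called 1 in each direction, and JMJD1A(H1122A) against JMJD1A(WT) 5 lower and 2 higher (9.50% and 23.8% of all genes were called in these comparisons), among them Irs2 (-0.28, adjusted p = 0.00125), Pdpk1 (-0.24, adjusted p = 0.000266), Akt2 (-0.23, adjusted p = 0.000548) and Foxo3 (0.315, adjusted p = 0.00812).

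In the growth hormone axis, which drives Igf1 transcription in liver and other tissues, 3 of 7 genes rose and 1 fell on knockdown, close to the 46.2% called over all genes. The receptor gene Ghr rose by 0.52 (adjusted p = 1.57e-11), Socs3 by 0.43 (adjusted p = 7.86e-05) and Jak2 by 0.35 (adjusted p = 0.000163), and Stat5a fell by 0.40 on the log2 scale (adjusted p = 4.65e-08). Against JMJD1A(WT), 5 of 7 were higher in JMJD1A(H1122A) cells, beside 12.1% of all genes, including Ghr (0.36, adjusted p = 2.61e-10), Stat5a (0.21, adjusted p = 0.000416), Stat5b (0.18, adjusted p = 0.00611) and Jak2 (0.19, adjusted p = 0.0249).

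In the mannose 6-phosphate sorting list 4 of 8 genes fell and 1 rose on knockdown, beside 46.2% of all genes called. Sort1, which encodes the sorting receptor sortilin, fell from 16.6 ± 1.58 to 7.85 ± 2.12 CPM (log2FC -1.05, adjusted p = 1.43e-06), and Gnptab, for a subunit of the enzyme that tags lysosomal proteins, fell by 0.54 on the log2 scale (adjusted p = 2.72e-11). Gga2, an adaptor, fell by 0.44 (adjusted p = 1.57e-07), and Gnptg rose by 0.24 (adjusted p = 0.0207). JMJD1A(H1122A) against JMJD1A(WT) called 3 of 8 beside 23.8% of all genes, namely Sort1 (-0.94, adjusted p = 0.00018), Gnptab (-0.20, adjusted p = 0.000996) and Gnptg (0.23, adjusted p = 0.0272).

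Among 7 other carriers and receptors, Igfbp1 and Igfbpl1 had 0 counts in all 15 libraries and Insrr 2, and 4 were tested, of which 1 fell and 2 rose on knockdown, where 46.2% of all genes were called. The gene that fell was Igfals, which encodes the acid-labile subunit of the blood IGF complex, with 10 to 93 counts a library (log2FC -2.15, adjusted p = 3.98e-07), and those that rose were Lrp1 (0.22, adjusted p = 0.00112) and Tmem219 (0.37, adjusted p = 0.0134). Insr, the insulin receptor gene, gave -0.02 (adjusted p = 0.811) on knockdown and -0.18 (adjusted p = 0.0207) for JMJD1A(H1122A) against JMJD1A(WT). Of 7 imprinted and RNA-binding genes 6 were tested on knockdown and 3 called, near that share; H19 and Igf2bp2 (-0.385, adjusted p = 3.38e-08) fell and Plagl1, an imprinted zinc finger gene, rose (1.06, adjusted p = 0.00011). Against JMJD1A(WT), Igf2bp3 was higher by 0.16 in JMJD1A(H1122A) cells (adjusted p = 0.00771). In the list of 6 IGFBP-related secreted proteins 3 were tested, and only Ccn1, a matricellular protein gene, was called in these 2 comparisons. The log2FC of Ccn1 was 1.33 (adjusted p = 5.73e-16) on knockdown, where 46.2% of all genes were called. It was 0.57 (adjusted p = 3.07e-12) for JMJD1A(H1122A) against JMJD1A(WT), where 23.8% were called. Kazald1 and Crim1 gave 0.05 and -0.04 on knockdown and were not called. Against LacZ, Ccn1 was higher both with JMJD1A(WT) (0.20, adjusted p = 0.0125) and with JMJD1A(H1122A) (0.77, adjusted p = 4.3e-15).

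The genes whose levels ran most like each member were found by Pearson correlation of log2 CPM over the 15 libraries, each set centred on its own mean, so that the points share libraries and group differences. For Igfbp4 they were Cebpa (r = 0.997) and Fabp4 (0.996), adipocyte genes, and Dlk1 (0.997), a preadipocyte gene; for Igfbp6 they included Pnpla2 (0.985) and Dbi (0.985). For Igfbp5 they were Ctla2a (0.974), Eps8 (0.966) and Hells (0.966), for Igf1 Cacna1g (0.978), Obsl1 (0.963) and Arhgef1 (0.963), and for Igf2 Ren1 (0.925), Cldn15 (0.919) and Phex (0.905). Igfbp4 and Igfbp5 themselves had r = 0.042, and Igfbp4 and Igfbp6 0.820. The same rule gave Reep3 (0.883) for Igfbp3 and Ier3ip1 (0.820) for Igfbp2, which rest on at most 7 counts a library and are no finding.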

How the data were processed

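Per the labels and the study's methods, the authors used fastp for trimming, HISAT2 for alignment (mm9) and featureCounts for counting per gene, and the deposited values are raw counts by Entrez Gene number, 1 file per library. The annotation and strand setting are not given in the sources used here. Members, lists and tests were chosen with earlier results of these data known. CPM used TMM factors of all 15 libraries, and exon lengths came from GENCODE M1. Differences were tested with edgeR 4.0.16 (R 4.3.3) quasi-likelihood, filterByExpr at a minimum count of 10, fitted on all genes of the knockdown set (6 libraries), the rescue set (9 libraries) or, across sets, all 15, with Benjamini-Hochberg adjustment over all genes at 0.05. SE is the absolute log2FC over the square root of F. Named list genes were up to 4 with the largest fold among those called at a mean of 5 CPM. Outside that rule, Stc1, Igfals and the Insr value on knockdown were added after their values were seen. The same holds for H19, Pappa, Pappa2 and Ccn1 values in further comparisons. Some genes that these rules name are not reported here. The code was tested on simulated counts. Replicate numbers did not pair the libraries. Alternatives included DESeq2 1.42.0, RLE size factors, other filters and leaving out each library.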

Additional observations from a re-analysis of the deposited data

Results flagged for a closer look

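The change on knockdown and the change for JMJD1A(WT) against LacZ summed to a value other than 0 for each of the 8 genes tested, where Igf2 and Igfbp5 count as descriptions; the sum was 1.86 for Igf1, 1.91 for Igf2, -0.36 for Igf1r, 0.17 for Igf2r, -0.48 for Igfbp4, 3.89 for Igfbp5, -1.33 for Igfbp6 and -0.40 for Igfbp7 on the log2 scale. The largest adjusted p among the 6 other genes was 0.0126, for Igf2r, and that call was lost without LacZ replicate 2, JMJD1A(WT) replicate 3 or sh-Empty replicate 3 (adjusted p up to 0.0666). Groups of 3 libraries are too small for a test of single outlying libraries.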

How the results depend on the processing

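Of 417 values under other size factors, tools, filters, fits or a replicate block, 413 kept their direction and side of the threshold; of 624 values with 1 library left out, 594 did. All 56 values with the replicate number as a block kept both, as did all 56 with RLE size factors; the numbers shared no deviation between groups (no correlation above 0.1), and the block called 5425 genes on knockdown and 1393 for JMJD1A(WT) against LacZ. For LacZ against sh-Jmjd1a, the count of called members fell from 2 to 1 without robust estimation (Igf2r, adjusted p = 0.052) and ranged from 1 to 2 with single libraries left out. The Igf1r difference between JMJD1A(H1122A) and JMJD1A(WT) was lost under DESeq2 (adjusted p = 0.0699) and in the fit of all 15 libraries (adjusted p = 0.115). The cause was not tested. Directions that turned were all of uncalled differences, when 1 library was left out and, for Igfbp6, also with no filter. They were Igf1 for JMJD1A(WT) against LacZ (-0.004 to 0.319), Igfbp7 for JMJD1A(H1122A) against JMJD1A(WT) (-0.072 to 0.010) and Igf2r for JMJD1A(H1122A) against LacZ (-0.004 to 0.072). For LacZ against sh-Jmjd1a they were Igf1r (-0.037 to 0.170), Igfbp4 (-0.079 to 0.027), Igfbp5 (-0.038 to 0.126), Igfbp6 (-0.067 to 0.041, and 0.007 with no filter) and Igfbp7 (-0.118 to 0.044). Depth limits Igf2 (1 to 121 counts a library), Igfbp2 and Igfbp3.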
